A study of Mus musculus with 6 samples.

Results

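The genes described here encode the nuclear subunits of respiratory complexes II, III, IV and V, together with cytochrome c, in CD4+ T cells sorted from mouse liver. Members were chosen by row name alone: Sdha, Sdhb, Sdhc, Sdhd, Cyc1, Cycs, and every symbol that starts with Uqcr, Cox4i, Cox5, Cox6, Cox7, Cox8 or Atp5, without rows that carry a numbered suffix or the pseudogene ending. The rule gave 49 of 23505 gene rows: 4 of complex II, 9 of complex III, 1 for cytochrome c, 18 of complex IV and 17 of complex V. All mice were labelled wild type and all received concanavalin A (ConA), a lectin from jack beans that stimulates T cells and inflames the liver. Mice of the ConA group were gavaged with phosphate-buffered saline, and those of the ConA+SIM group with simvastatin, a statin that inhibits HMG-CoA reductase, at 30 mg/kg. The gavage was given on each of 5 days ahead of the ConA injection, again 1 h ahead of it and once more 24 h after the injection. Cells were sorted as CD3+ NK1.1- CD4+ CD8-, and each group has 3 RNA sequencing libraries. No library from mice without ConA was analysed here, and the sources used here do not give strain, age or sex.

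These complexes sit in the inner mitochondrial membrane. Complex II, succinate dehydrogenase, passes electrons from succinate to ubiquinone and is also an enzyme of the citrate cycle. Complex III takes electrons from ubiquinol and hands them to cytochrome c, and complex IV, cytochrome c oxidase, passes them on to oxygen. Both pump protons, and complex V, ATP synthase, lets the protons flow back through a rotating ring to make ATP. Catalysis rests on a few large subunits, some of them encoded by mitochondrial DNA, while most nuclear genes of complexes III to V encode small accessory proteins that stabilize the complex. T cells raise mitochondrial respiration when they are activated and rely on it for growth and memory.

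Levels are CPM, counts relative to the library total after scaling by trimmed mean of M-values (TMM), and values of a group are listed in the order of its replicates 1, 2 and 3. The shallowest library, ConA+SIM replicate 2, held 17549429 counts and the deepest, ConA replicate 3, 25031862. At these depths 3 counts, the limit that a count of 0 allows at 95% confidence for counting error only, corresponded to 0.118 to 0.175 CPM. ConA+SIM replicate 2 stood apart, with 18.4% of tested genes at 0 counts against 2.76% to 9.98% elsewhere. The T cell identity of the sort was read from marker genes that include Cd3e, Cd4 and Lck. Of 10 listed, 8 had a row in the counts. These 8 summed to 2228, 2038 and 3200.0 CPM in ConA and 3008, 2927 and 2885 CPM in ConA+SIM. Cd4 alone stood at 545, 485 and 766 CPM in ConA and 562, 441 and 469 CPM in ConA+SIM. Cd2 was low, at 1.94, 21.1 and 10.7 CPM in ConA and 6.67, 10.4 and 6.57 CPM in ConA+SIM. In 6 of these 8 markers, Cd4 included, the groups overlapped. The other 2 had all ConA+SIM values above all ConA values: Cd3d stood at 312, 318 and 453 CPM in ConA and 596, 553 and 702 CPM in ConA+SIM and Cd3g at 645, 433 and 629 CPM in ConA and 876, 786 and 993 CPM in ConA+SIM (log2 fold changes 0.77 ± 0.22 and 0.64 ± 0.21, adjusted p = 0.286 and 0.377, edgeR). The labels do not say whether the libraries of a group came from separate animals, so p-values reflect only how these samples differ among themselves, and that spread may be technical. In such sorted bulk samples fewer cells of a type and less RNA per cell cannot be told apart.

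Subunit genes of complexes III, IV and V mostly had higher values in ConA+SIM than in ConA, with the largest differences in small accessory subunits, but a single one passed the test. Of the 49 members, 42 had enough counts to be tested, and 36 of these had a log2 fold change above 0, where 48.0% of all 10509 tested genes did. One member, Cox6c, rose past an adjusted p of 0.05 in edgeR's quasi-likelihood test and 0 members fell. Among all tested genes 0.542% passed, and a single call is too few to compare with that share. At an unadjusted p under 0.05, 13 members were higher, against 5.31% of all tested genes, and 1 was lower, against 3.54%. The 3 ConA+SIM values lay above all 3 ConA values in 14 members, where 9.18% of all tested genes showed this, and below them in 1 member, Sdha, where 8.57% did. The median log2 fold change was 0.53 over the 42 tested members and -0.041 over all tested genes. With each library's trend with transcript length removed, the members' median was 0.011 and 21 of 42 were above 0, and with coding length in its place 0.145 and 27 of 42. Without such a correction the median was -0.064 for complex II, 0.81 for complex III, 0.54 for complex IV and 0.57 for complex V.

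**Figure D1:**
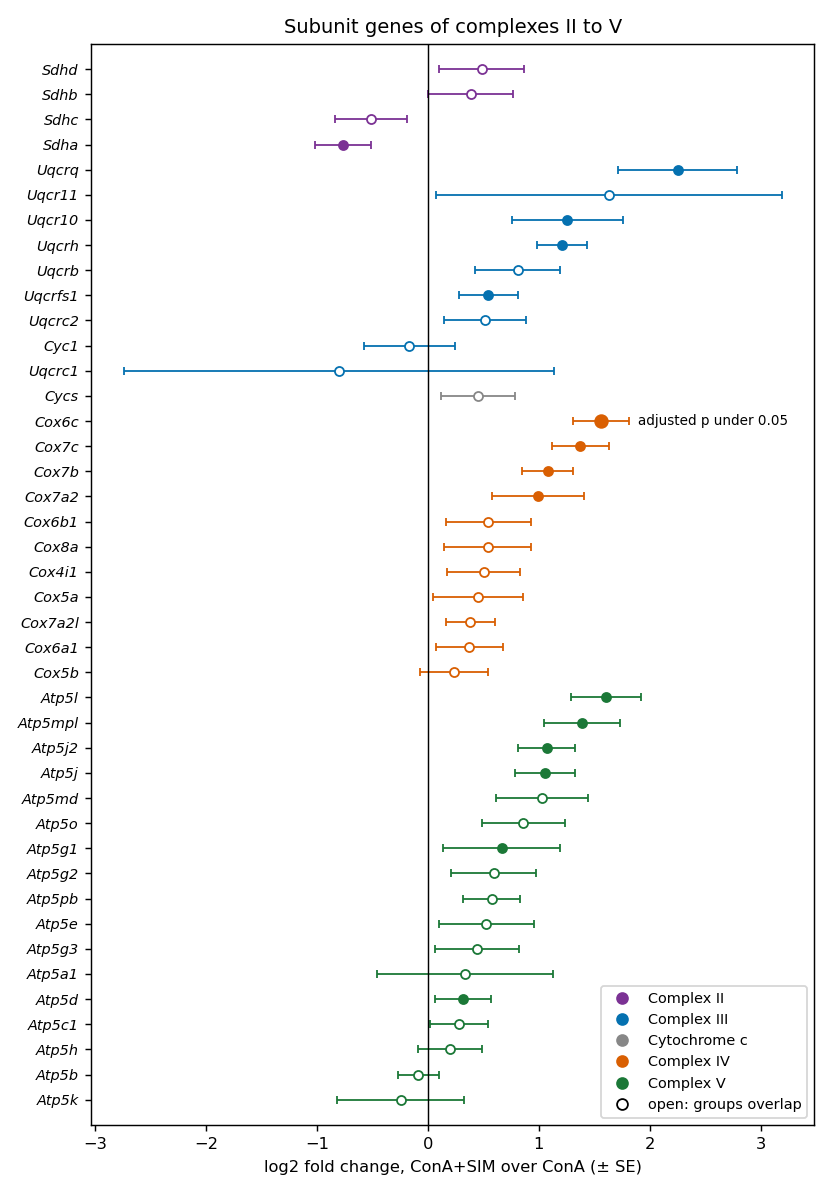
Log2 fold change of each of the 42 tested members, ConA+SIM over ConA, with its standard error (horizontal axis), grouped by complex. Filled points mark members whose 3 ConA+SIM values do not overlap the 3 ConA values and open points those that overlap; 36 points lie above 0, and Cox6c is the 1 member with an adjusted p under 0.05.

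Nuclear genes of the respiratory chain are known targets of nuclear respiratory factor 1 and of ETS factors such as GABP, so the promoters of the members were searched for the letters CGCATGCGC, the core of the first factor's motif, and CCGGAAG, an ETS core, on both strands. Promoters from RefSeq on GRCm38.p6 were found for 37 of the 49 members, and the 250 bases before the start were read. The first motif was in 5 of the 37 members (Atp5g2, Atp5k, Atp5l, Cox6a1 and Cycs), 13.5%, and in 1.45% of all 32851 promoters. The ETS core was in 9 of the 37 (Atp5e, Atp5h, Atp5j, Atp5l, Cox6a1, Cox6b1, Sdhd, Uqcr11 and Uqcrh), 24.3%, and in 6.91% of all promoters. The shares of the members count genes, while those of all promoters count promoters. The 37 members had 40 promoters, of which 5 held the first motif and 9 the ETS core. Members with a motif included some whose ConA+SIM values were all above their ConA values and some whose groups overlapped: Atp5l has both motifs and Uqcrh the ETS core, with groups apart, whereas Cycs has the first motif and overlapping groups. The promoters of these 3 genes are shown for that contrast, on the gene's strand from 5′ to 3′, with matches to either motif in capitals. Atp5l is at chr9:44920743-44920992, Uqcrh at chr4:116075071-116075320 and Cycs at chr6:50566570-50566819, all on the minus strand.
Atp5l: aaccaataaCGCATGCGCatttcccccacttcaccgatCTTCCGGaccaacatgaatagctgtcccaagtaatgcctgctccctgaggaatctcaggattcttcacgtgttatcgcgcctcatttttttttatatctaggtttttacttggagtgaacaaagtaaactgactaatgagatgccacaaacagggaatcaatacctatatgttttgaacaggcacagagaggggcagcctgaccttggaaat
Uqcrh: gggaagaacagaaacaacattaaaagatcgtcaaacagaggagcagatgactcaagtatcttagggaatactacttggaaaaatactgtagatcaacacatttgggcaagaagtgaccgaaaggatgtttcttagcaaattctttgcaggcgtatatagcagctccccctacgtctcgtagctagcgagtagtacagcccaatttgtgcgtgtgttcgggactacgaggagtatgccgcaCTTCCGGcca
Cycs: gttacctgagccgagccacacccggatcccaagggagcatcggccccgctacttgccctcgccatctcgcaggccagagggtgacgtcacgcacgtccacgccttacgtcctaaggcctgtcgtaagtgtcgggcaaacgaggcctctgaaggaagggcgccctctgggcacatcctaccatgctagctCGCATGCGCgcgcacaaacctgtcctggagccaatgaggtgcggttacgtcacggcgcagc
A match describes the letters in this window only, and the matches in Atp5l do not overlap.

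Complex II was the 1 complex whose genes split evenly, 2 above 0 and 2 below. Sdha, the flavoprotein that oxidizes succinate (chromosome 13, 74322255 to 74350240 on GRCm38), stood at 241, 277 and 232 CPM in ConA and 149, 119 and 174 CPM in ConA+SIM. Every ConA+SIM value was below every ConA value, and the log2 fold change was -0.77 ± 0.25 (SE, adjusted p = 0.383, edgeR), which did not pass. Sdhb, the iron-sulfur subunit that carries electrons on from the flavin, stood at 77.5, 60.9 and 142 CPM in ConA and 97.7, 142 and 127 CPM in ConA+SIM. The groups overlapped for Sdhb, since ConA replicate 3 was the highest library. Sdhc, a membrane anchor at the ubiquinone site, stood at 121, 154 and 91.9 CPM in ConA and 78.2, 92.8 and 85.8 CPM in ConA+SIM, and its log2 fold change was -0.51 ± 0.32 (adjusted p = 0.818, edgeR). The other anchor, Sdhd, stood at 79.9, 107 and 175 CPM in ConA and 195, 107 and 205 CPM in ConA+SIM, with a log2 fold change of 0.48 ± 0.38 (adjusted p = 0.946, edgeR). The anchors thus leaned in opposite directions, and in both the groups overlapped.

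In complex III the small subunits differed more than the core and redox subunits. Over the 5 small subunit genes (Uqcrh, Uqcrq, Uqcr10, Uqcr11 and Uqcrb) the median log2 fold change was 1.26 and all 5 were above 0. Over the 4 genes for core and redox subunits (Uqcrc1, Uqcrc2, Uqcrfs1 and Cyc1) it was 0.17, with 2 above and 2 below 0. None of the 9 passed the edgeR test, and 3 had an unadjusted p under 0.05. Uqcrh, the hinge protein that helps cytochrome c1 meet cytochrome c (chromosome 4, 116066965 to 116075070 on GRCm38), stood at 271, 261 and 370.3 CPM in ConA and 741, 771 and 573 CPM in ConA+SIM. The groups were well apart, and the log2 fold change was 1.21 ± 0.22 (adjusted p = 0.0623, edgeR). Uqcrq, a small membrane subunit (chromosome 11, 53427922 to 53430831), stood at 11.6, 15.6 and 36.7 CPM in ConA and 122, 89.2 and 92.5 CPM in ConA+SIM. Its log2 fold change of 2.25 ± 0.54 was the largest of all members (adjusted p = 0.179, edgeR), and its ConA values were themselves spread, with ConA replicate 3 well above the other libraries of its group. Uqcr10, another small subunit, stood at 82.7, 20.0 and 74.8 CPM in ConA and 147, 127 and 149.7 CPM in ConA+SIM, and ConA replicate 2 was its lowest library (log2 fold change 1.26 ± 0.50, adjusted p = 0.489, edgeR).

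The larger subunits of complex III gave another picture. Uqcrfs1, the Rieske iron-sulfur protein that takes electrons from ubiquinol, stood at 149.6, 129 and 109 CPM in ConA and 190.3, 210.0 and 166 CPM in ConA+SIM; the groups did not overlap, but the log2 fold change was 0.55 ± 0.26 (adjusted p = 0.627, edgeR). Cyc1, cytochrome c1, stood at 123, 69.7 and 69.9 CPM in ConA and 86.5, 96.3 and 51.4 CPM in ConA+SIM, with overlapping groups and a log2 fold change of -0.17 ± 0.41. Uqcrc2, a core subunit, stood at 174, 183 and 104 CPM in ConA and 249, 124 and 287 CPM in ConA+SIM, and ConA+SIM replicate 2 lay inside the ConA range. Its partner Uqcrc1 was the least abundant tested member and the most uneven. It stood at 32.2, 1.56 and 10.7 CPM in ConA and 3.68, 2.33 and 19.5 CPM in ConA+SIM, from 31 counts in ConA replicate 2 to 745 in ConA replicate 1, so that its log2 fold change of -0.80 ± 1.94, the lowest of the members, has an error wider than its value. Cycs, the somatic cytochrome c that shuttles between complexes III and IV and triggers apoptosis when released, stood at 63.9, 102 and 104 CPM in ConA and 133, 97.3 and 137 CPM in ConA+SIM and overlapped between groups (log2 fold change 0.45 ± 0.33, adjusted p = 0.921, edgeR).

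Complex IV had 11 tested members, all with a log2 fold change above 0 and 1 past the threshold. Cox6c, a small accessory subunit that spans the membrane (chromosome 15, 35931976 to 35938246 on GRCm38), stood at 104, 128 and 108 CPM in ConA and 398, 338 and 267 CPM in ConA+SIM. The highest ConA value was less than any ConA+SIM value. Its mean was 113 ± 12.8 CPM in ConA and 334 ± 65.9 CPM in ConA+SIM (SD, n = 3 per group), a rise of 1.56 ± 0.25 on the log2 scale (adjusted p = 0.0382, edgeR quasi-likelihood test). Cox7c (chromosome 13, 86044798 to 86046795), a single-helix subunit, stood at 102, 81.2 and 90.6 CPM in ConA and 249, 247 and 214 CPM in ConA+SIM, with little spread inside either group, and missed the threshold (log2 fold change 1.38 ± 0.25, adjusted p = 0.0623, edgeR). Cox7b, a further single-helix subunit (chromosome X, 106015700 to 106022450), stood at 128, 144 and 167 CPM in ConA and 292, 291 and 341 CPM in ConA+SIM, again without overlap (log2 fold change 1.08 ± 0.23, adjusted p = 0.124, edgeR). The call of Cox6c ended when any 1 of the 6 libraries was left out, with log2 fold changes from 1.42 to 1.70 and adjusted p from 0.0823 to 0.249 in the same edgeR test.

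Cox4i1, Cox5a and Cox5b of complex IV had smaller fold changes than Cox6c, Cox7c and Cox7b, the 3 with the smallest p. Cox4i1, the ubiquitous form of the subunit through which ATP regulates the enzyme, stood at 269, 162 and 330.2 CPM in ConA and 321, 498 and 259.8 CPM in ConA+SIM, with overlapping groups. Cox5a stood at 98.3, 42.2 and 91.1 CPM in ConA and 123, 106 and 87.8 CPM in ConA+SIM, and ConA replicate 2 lay well below the rest. Cox5b, the zinc-binding subunit, had the lowest log2 fold change of complex IV, 0.23 ± 0.30, at 148, 108 and 203 CPM in ConA and 208, 151 and 180.5 CPM in ConA+SIM. Cox4i1, Cox5a and Cox5b had log2 fold changes of 0.50 ± 0.33, 0.45 ± 0.40 and 0.23 ± 0.30, none past the threshold. The small subunits Cox6b1 and Cox8a, of 86 and 69 residues, were near them at 0.54 each. Still, every tested complex IV gene with a coding sequence of at most 258 nt had a larger log2 fold change than every longer one. The short genes ran from 0.54 for Cox8a to 1.56 for Cox6c, and the highest longer one was Cox4i1 at 0.50. That edge lay within the standard errors, 0.39 for Cox8a and 0.33 for Cox4i1.

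Complex IV also has tissue forms of several subunits, and the liver CD4+ T cells carried the ubiquitous ones. Cox7a2, the ubiquitous form of subunit 7A, stood at 135, 45.8 and 89.9 CPM in ConA and 233, 136 and 169.9 CPM in ConA+SIM, just apart between groups (log2 fold change 0.99 ± 0.42, adjusted p = 0.533, edgeR). The heart and muscle form Cox7a1 had 0 counts in all 6 libraries, as had Cox4i2, Cox7b2, Cox8b and Cox8c. Cox7a2l, a relative of subunit 7A that joins complexes III and IV into supercomplexes, stood at 249, 362 and 277 CPM in ConA and 346, 420.1 and 392 CPM in ConA+SIM, and the groups overlapped. Cox6a1, Cox6b1 and Cox8a, the ubiquitous forms of their subunits, had log2 fold changes of 0.37 ± 0.30, 0.54 ± 0.38 and 0.54 ± 0.39. Their levels were 147, 90.6 and 99.96 CPM in ConA and 148, 155 and 134 CPM in ConA+SIM for Cox6a1. For Cox6b1 they were 235, 144 and 155 CPM in ConA and 332, 127 and 320.4 CPM in ConA+SIM. For Cox8a they were 174, 81.5 and 141 CPM in ConA and 276, 118 and 183 CPM in ConA+SIM. In all 3 genes the groups overlapped, and ConA+SIM replicate 2 was the lowest ConA+SIM library for Cox6b1 and Cox8a. Of the remaining forms, Cox6a2, the heart and muscle form, had 176 counts in ConA+SIM replicate 1 and 180 in ConA+SIM replicate 3, 9.40 and 9.62 CPM, and 0 in the other 4 libraries. The testis form Cox6b2 had 84 counts in ConA replicate 3 and 115 in ConA+SIM replicate 3 and 0 in the rest. These 7 genes were too sparse to be tested. Cox6a2 shares 70 exon bases with Itgad on the opposite strand, which stood at 15.6 CPM in ConA+SIM replicate 3 and at most 0.747 CPM elsewhere.

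Complex V had 17 members, all tested, of which 15 were above 0, 2 below 0 and 0 past the threshold, with 6 higher at an unadjusted p under 0.05. The median log2 fold change was highest in the small membrane subunits, at 1.07 over 5 genes. It was 0.72 over the 4 genes of the peripheral stalk, which holds the catalytic head still, 0.59 over the 3 genes of the rotating c ring and 0.31 over the 5 genes of the F1 head and central stalk. Atp5l, subunit g, which helps ATP synthase form dimers at the edges of the cristae (chromosome 9, 44913248 to 44920742 on GRCm38), stood at 120.3, 89.1 and 160.2 CPM in ConA and 425, 443 and 258 CPM in ConA+SIM. All ConA+SIM values exceeded all ConA values, and the log2 fold change was 1.61 ± 0.31 (adjusted p = 0.0743, edgeR). Atp5mpl, a small proteolipid of the membrane part, stood at 84.7, 43.6 and 70.4 CPM in ConA and 146, 196 and 178 CPM in ConA+SIM, and Atp5j2, subunit f, at 197, 135 and 173 CPM in ConA and 408, 378 and 276 CPM in ConA+SIM. Both were apart between groups, with log2 fold changes of 1.39 ± 0.34 (adjusted p = 0.202) and 1.07 ± 0.26 (adjusted p = 0.18, edgeR). Atp5k, subunit e and the binding partner of subunit g, was the exception among the small membrane subunits. It stood at 93.5, 42.8 and 56.1 CPM in ConA and 56.4, 20.8 and 84.9 CPM in ConA+SIM, with a log2 fold change of -0.25 ± 0.58, the lowest of complex V, and ConA+SIM replicate 2 was its lowest library. That value was 0.11 without ConA replicate 1 and 0.14 without ConA+SIM replicate 2.

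In the head of ATP synthase the subunits that bind nucleotides gave a difference near 0 or an uneven one. Atp5b, the beta subunit that carries the catalytic sites (chromosome 10, 128083307 to 128090388), was the member with the highest CPM and stood at 865, 812 and 1156 CPM in ConA and 886, 891 and 890.3 CPM in ConA+SIM. The ConA+SIM values were nearly equal and lay inside the ConA range (log2 fold change -0.09 ± 0.18). Atp5a1, the alpha subunit, stood at 135, 29.7 and 82.4 CPM in ConA and 68.7, 220.3 and 22.9 CPM in ConA+SIM, and its lowest and its highest library were both in ConA+SIM. Atp5a1 shares 129 exon bases on the opposite strand with Haus1, which stood at 15.6, 0.101 and 10.9 CPM in ConA and 2.78, 0.642 and 6.63 CPM in ConA+SIM. In the ring, the genes Atp5g1, Atp5g2 and Atp5g3 encode precursors of one and the same mature c subunit. Atp5g1 stood at 27.3, 37.4 and 30.0 CPM in ConA and 38.0, 65.4 and 46.7 CPM in ConA+SIM, with groups just apart, Atp5g2 at 104, 106 and 122 CPM in ConA and 199, 80.8 and 220.2 CPM in ConA+SIM and Atp5g3 at 239.6, 87.4 and 147 CPM in ConA and 258, 161 and 225 CPM in ConA+SIM, both overlapping. Atp5g3 gave 50.6% ± 13.4 of the summed CPM of the 3 genes in ConA and 50.1% ± 3.78 in ConA+SIM (SD, n = 3 per group), Atp5g2 38.2% ± 9.23 and 37.1% ± 9.62, and Atp5g1 11.2% ± 4.53 and 12.8% ± 7.40. The mean shares of the groups differed by less than the spread between libraries.

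The remaining tested members lay between these. In complex V, Atp5j, coupling factor 6 of the peripheral stalk, stood at 115, 93.8 and 89.7 CPM in ConA and 239.5, 178 and 203 CPM in ConA+SIM and was apart between groups (log2 fold change 1.05 ± 0.27, adjusted p = 0.223, edgeR). Atp5d, the delta subunit of the central stalk, was also apart, though by only 0.31 ± 0.25 on the log2 scale, at 123, 130.2 and 134 CPM in ConA and 175, 151 and 155 CPM in ConA+SIM. Atp5md, Atp5o, Atp5pb, Atp5e, Atp5c1 and Atp5h of complex V and Uqcrb and Uqcr11 of complex III had log2 fold changes from 0.20 to 1.63 with overlapping groups. Of these, Atp5o (OSCP), Atp5pb (subunit b) and Atp5h (subunit d) belong to the peripheral stalk, at 0.86 ± 0.38, 0.57 ± 0.26 and 0.20 ± 0.29 on the log2 scale, and Atp5c1 (gamma) and Atp5e (epsilon) to the central stalk, at 0.28 ± 0.26 and 0.53 ± 0.42. In all 8 but Atp5e the overlap ended when ConA+SIM replicate 2 was left out: Atp5md, a small membrane subunit, stood at 62.7, 88.0 and 93.0 CPM in ConA and 239, 82.3 and 176 CPM in ConA+SIM, and Uqcrb, a small matrix-side subunit, at 70.9, 87.4 and 103 CPM in ConA and 194, 82.2 and 181 CPM in ConA+SIM. Uqcr11 had 0 counts in ConA replicate 2 and 17.8 CPM in ConA+SIM replicate 2, against 67.8 CPM in ConA+SIM replicate 1.

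**Figure D2:**
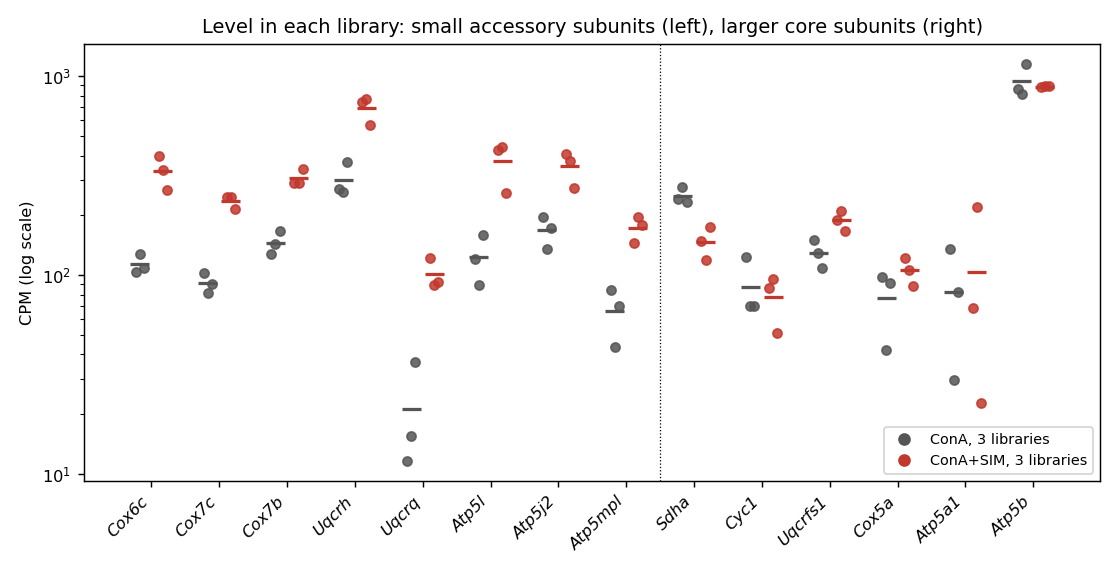
Level of 14 members in each library (CPM, log scale), with ConA in grey and ConA+SIM in red; points are libraries 1 to 3 from left to right and lines are group means. The 8 small subunits on the left were picked among members whose groups are apart, so every red point lies above every grey point there; of all 15 tested members of at most 300 nt coding length, 9 are apart and 6 overlap. Of the 6 larger subunits on the right, Sdha, which is lower, and Uqcrfs1 keep the groups apart. Cox5a among them is an accessory subunit.

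Summed over its genes, complex III had a level of 933, 767 and 909 CPM in ConA and 1802, 1520.0 and 1586 CPM in ConA+SIM. Complex IV summed to 1789, 1390.0 and 1756 CPM in ConA and 2934, 2590.0 and 2566 CPM in ConA+SIM, and complex V to 3245, 2544 and 3419 CPM in ConA and 4712, 3811 and 4336 CPM in ConA+SIM. In these 3 sums every ConA+SIM library was above every ConA library. The sum over all tested genes was also higher in every ConA+SIM library, but the TMM factor of each library fixes that sum. It therefore cannot tell whether the difference is particular to these complexes. That sum was 938800, 918800 and 980800 CPM in ConA and 1088000, 1020000 and 1065000 CPM in ConA+SIM. Its mean was 946100 CPM in ConA and 1058000 CPM in ConA+SIM. The means were 870 and 1636 CPM for complex III, 1645 and 2697 CPM for complex IV and 3069 and 4286 CPM for complex V. Complex II gave 519, 599 and 642 CPM in ConA and 519.7, 460.5 and 591 CPM in ConA+SIM, with overlapping groups. Over all 49 members the sum was 0.540% to 0.683% of the scaled library total in ConA and 0.848% to 1.01% in ConA+SIM. The part from the 31 tested members with a coding sequence of at most 600 nt ran from 3181 to 4159 CPM in ConA and from 6013 to 7249 CPM in ConA+SIM. The part from the longer members ran from 2220.0 to 2667 CPM in ConA and from 2465 to 2983 CPM in ConA+SIM, and overlapped.

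**Figure D3:**
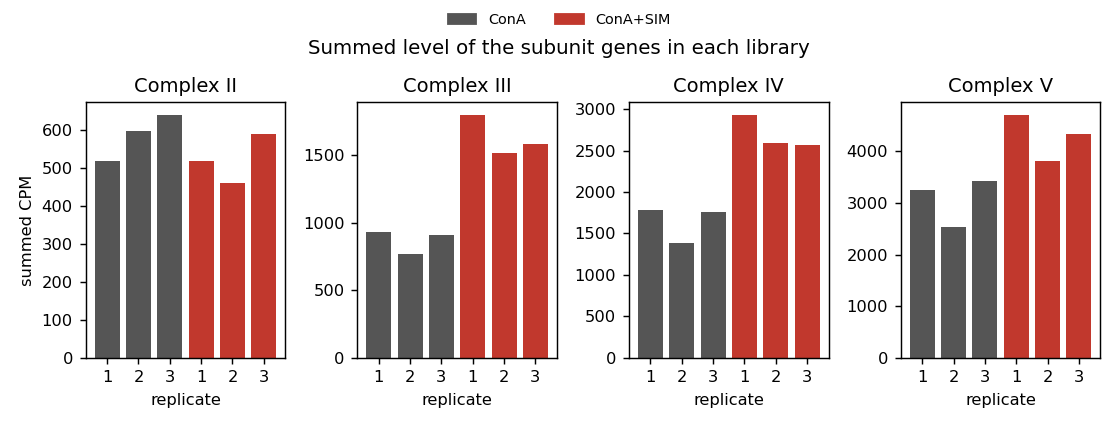
Summed CPM of the subunit genes of complexes II, III, IV and V in each of the 6 libraries (bars, each panel from 0). For complexes III, IV and V the 3 red ConA+SIM bars are above the 3 grey ConA bars, and for complex II the groups overlap.

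Libraries of a group were not alike. Among the 42 tested members, 21 had their lowest CPM in ConA replicate 2 and 16 their highest in ConA+SIM replicate 1. ConA+SIM replicate 2 was the lowest library of all for 5 members and the highest for 9. Relative to the ConA mean on the log2(CPM + 1) scale, the members had a median of 0.15, -0.27 and 0.15 in the ConA libraries and 0.76, 0.21 and 0.69 in the ConA+SIM libraries. The same median over all tested genes was 0.001, 0 and 0.10 in the ConA libraries and 0.12, -0.18 and 0.17 in the ConA+SIM libraries. Both medians were thus lower in ConA+SIM replicate 2 than in the other ConA+SIM libraries. The median of the members stayed above the ConA mean there. Without ConA+SIM replicate 2, 27 members instead of 14 kept all ConA+SIM values above all ConA values, where 16.3% of all tested genes did. The 13 that joined were Sdhd, Uqcrb, Uqcr11, Uqcrc2, Cycs, Cox6b1, Cox8a, Atp5md, Atp5o, Atp5pb, Atp5h, Atp5c1 and Atp5g2. Leaving out another library gave 16, 15 and 18 members without ConA replicates 1, 2 and 3 (all tested genes 12.9%, 13.4% and 13.7%), 15 without ConA+SIM replicate 1 (13.1%) and 16 without ConA+SIM replicate 3 (13.0%). The coefficient of variation within a group had a median over the tested members of 26.9% in ConA and 21.4% in ConA+SIM, and was highest for Uqcrc1, at 106% and 112%. Divided by coding length, the levels of the members in ConA ran from 10.3 CPM per kb for Uqcrc1 to 1125 CPM per kb for Uqcrh, which ranked first in both groups, with 2603 CPM per kb in ConA+SIM. Next after Uqcrh in ConA came Cox7a2l at 889 and Cox6b1 at 691 CPM per kb, whose library ranges of 747 to 1088 and 558 to 912 overlapped each other, as that of Cox7a2l overlapped that of Uqcrh (977 to 1387). In this order Uqcrq was at rank 39 of 42 in ConA and at rank 25 in ConA+SIM.

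Fold changes were higher in genes with short coding sequences, among the members and among all tested genes. The 15 tested members with a coding sequence of at most 300 nt had a median log2 fold change of 1.08, and the 211 tested genes of that length one of 0.69. Between 300 and 600 nt the median was 0.45 over 16 members and 0.36 over 1154 genes. Between 600 and 1200 nt it was 0.47 over 6 members and 0.09 over 2959 genes. Between 1200 and 2400 nt it was -0.086 over 5 members and -0.097 over 3659 genes. The rank correlation of log2 fold change with coding length was -0.67 across the 42 members and -0.26 across 10103 tested genes with a coding length. These are descriptions across genes, which share libraries and are not independent replicates. Of the 14 members whose ConA+SIM values all exceeded their ConA values, 13 had coding sequences of at most 600 nt, Uqcrfs1 being the other. Of all 42 tested members, 31 had coding sequences of that length. Cox6c codes for 76 residues, Cox7c for 63, Uqcrq for 82 and Atp5mpl for 58, against 664 for Sdha and 529 for Atp5b. Atp5k, at 71 residues, was small and yet not higher.

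When each library's trend with transcript length was removed, the median of the members thus went from 0.53 to 0.011, and with GC content as well to 0.074. Under these corrections and that for coding length 0 members and 0 of all tested genes passed the edgeR test, while 761, 530 and 726 genes had an unadjusted p under 0.05. Cox6c then stood at a log2 fold change of 0.73, 0.58 and 0.80 (adjusted p = 0.547, 1 and 0.502, edgeR). Uqcrq lay between 1.55 and 2.92 over all 20 alternatives, and Sdha, whose transcript is long, lay between -0.90 and -0.61.

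**Figure D4:**
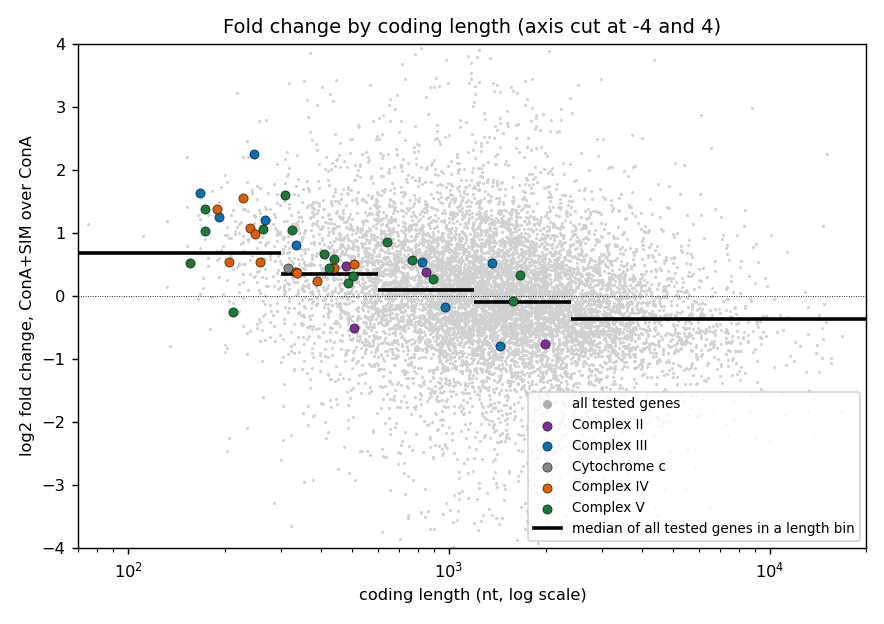
Log2 fold change, ConA+SIM over ConA, against coding length (nt, log scale) for all tested genes (grey) and the members (coloured by complex); black lines are medians of all tested genes in a length bin. Members of at most 300 nt have a median of 1.08 where all tested genes of that length have 0.69, and the lines step down to -0.37 for genes over 2400 nt.

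Other genes of mitochondrial respiration were read from lists chosen by function. Of 37 complex I subunit genes, 35 were tested, 26 were above 0 and 0 passed (4 higher and 1 lower at an unadjusted p under 0.05), with a median of 0.45. The smallest p-values were those of Ndufb11, a membrane-arm subunit, at 93.1, 71.3 and 101 CPM in ConA and 289.7, 214 and 134 CPM in ConA+SIM (log2 fold change 1.26 ± 0.34), and Ndufa6, at 67.8, 79.0 and 91.5 CPM in ConA and 142, 365 and 138 CPM in ConA+SIM (1.43 ± 0.42). Of 31 tested assembly factors of complexes II to V, 20 were above 0 and 0 passed (1 higher and 0 lower at an unadjusted p under 0.05), with a median of 0.39. Pet100, a small factor that helps build complex IV, stood at 18.0, 7.55 and 4.37 CPM in ConA and 58.8, 39.5 and 39.8 CPM in ConA+SIM (log2 fold change 2.21 ± 0.85), and Cmc2 at 27.2, 29.1 and 26.4 CPM in ConA and 51.5, 57.8 and 43.4 CPM in ConA+SIM (0.89 ± 0.52). The 14 tested genes of mitochondrial biogenesis, such as the factors that transcribe and copy mitochondrial DNA, had a median of 0.14 and 0 calls, with 1 higher at an unadjusted p under 0.05. That gene, Tfb1m, a methyltransferase of mitochondrial ribosomal RNA, stood at 0.0864, 0 and 0 CPM in ConA and 5.55, 20.3 and 9.30 CPM in ConA+SIM, and Yy1 at 147, 143 and 188 CPM in ConA and 208, 309 and 176 CPM in ConA+SIM. The 14 genes of the citrate cycle, the pathway that feeds the chain, split 7 above and 7 below 0, with a median of 0.081 and 0 calls, with 1 lower at an unadjusted p under 0.05. That gene, Ogdh, the first subunit of the oxoglutarate dehydrogenase complex, stood at 289, 290.0 and 247 CPM in ConA and 139, 41.9 and 87.7 CPM in ConA+SIM (log2 fold change -1.62 ± 0.41), and Idh3a, an isocitrate dehydrogenase subunit, at 114, 131 and 111 CPM in ConA and 89.1, 79.5 and 77.8 CPM in ConA+SIM (-0.53 ± 0.30). In Ogdh and Idh3a, as in Sdha, every ConA+SIM value was below every ConA value. Mitochondrially encoded subunits were not analysed here.

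Some markers of other cells were also apart between the groups. Erythroid markers summed to 43.8 to 115 CPM in ConA and 229 to 343 CPM in ConA+SIM, and the 5 neutrophil markers, of which Ly6g was at 0 in all libraries, to 259 to 425 and 592 to 871 CPM, without overlap. Most of the neutrophil sum came from S100a8 (121, 105 and 92.6 CPM in ConA and 384, 257 and 207 CPM in ConA+SIM) and S100a9 (198, 215 and 128 CPM in ConA and 456, 299.9 and 486 CPM in ConA+SIM), while Ngp (31.2, 79.0 and 36.7 CPM in ConA and 26.3, 34.7 and 13.0 CPM in ConA+SIM) and Camp (0, 25.7 and 2.05 CPM in ConA and 4.43, 0 and 19.8 CPM in ConA+SIM) overlapped between groups, with lower means in ConA+SIM. The sums of the other lists overlapped: 8 hepatocyte markers (Cps1 at 0) came to 30.3 to 84.6 CPM in ConA and 74.4 to 166 CPM in ConA+SIM, 6 NK cell markers (Ncr1 and Klra8 at 0) to 30.5 to 98.8 and 71.5 to 95.9 CPM, 5 B cell markers to 99.2 to 1054 and 305 to 722 CPM, 8 Kupffer cell and macrophage markers to 687 to 1778 and 198 to 1042 CPM, 2 CD8 T cell markers to 4.72 to 33.1 and 26.3 to 54.1 CPM, and 6 sinusoidal endothelial markers to 209 to 1488 and 288 to 448 CPM. Among the macrophage markers, Lyz2 stood at 1596, 620.8 and 564.5 CPM in ConA and 884.8, 173.4 and 810.5 CPM in ConA+SIM. ConA replicate 2, where 21 members had their lowest CPM, alone gave the high B cell sum of 1054 CPM, against 99.2 and 121 CPM in ConA replicates 1 and 3. It also gave the high endothelial sum of 1488 CPM, against 209 and 447 CPM in those libraries. The part of these other cells in the differences of the members was not tested.

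The sources used here do not say how reads that match several places were counted or whether strand was used. In GENCODE M21, 12 of the 42 tested members have a stretch of at least 200 nt that is at least 97% identical to a transcript of another gene, among them Cox7c and Atp5l, and their levels are uncertain to that extent. Exons of 13 tested members overlap those of another gene. Cox6c shares 250 exon bases with Vps13b on the opposite strand, and Vps13b stood at 181, 80.2 and 133 CPM in ConA and 85.6, 73.9 and 78.5 CPM in ConA+SIM, with overlapping groups and a lower mean in ConA+SIM, where Cox6c was higher. Atp5j shares 397 with Gabpa, which stood at 137, 84.1 and 93.2 CPM in ConA and 105, 129.9 and 99.8 CPM in ConA+SIM, with overlapping groups. Other tools called more members. DESeq2 called 9 higher, against 3.39% of all genes, and Sdha lower, against 1.89%. It gave no adjusted p to 5709 of the 10509 genes and 3 of the 42 members, and of the 4800 genes with one it called 7.42% higher and 4.15% lower. The 9 were Cox6c, Cox7c, Cox7b, Uqcrh, Uqcrq, Atp5l, Atp5j2, Atp5mpl and Atp5j. Both forms of limma-voom called Cox6c, Cox7c, Uqcrh and Atp5l higher and 0 members lower, against 1.14% higher and 0.0761% lower of all genes, or 1.21% and 0.0952% with sample quality weights. Without a filter on low counts edgeR called Cox6c, Uqcrh and Atp5l higher, against 0.522% of genes, and 0 members lower, against 0.00756%. Of the other lists, DESeq2 called 4 complex I genes higher (Ndufa6, Ndufb11, Ndufc2 and Ndufs8), DESeq2 and both forms of limma-voom called Ogdh lower, and these tools made 0 calls among the assembly factors and the biogenesis genes.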

How the data were processed

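RNA sequencing counts of 6 libraries, 3 per group, were analysed. HISAT2 2.1.0 and GRCm38 are named by the submitters' processing notes, and the sources used here do not give the counting tool, annotation release or strand setting. The authors deposited raw counts per gene, whole numbers without normalization, with 1 column per sample named by its title, and 0 columns were left unused. Total counts were 17549429 to 25031862 per library.

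From these counts, genes were kept with filterByExpr of edgeR 4.0.16 (R 4.3.3), scaled by TMM and tested with the quasi-likelihood F test with robust settings, ConA+SIM over ConA, without covariates, over all 10509 kept genes, with Benjamini-Hochberg adjustment and a threshold of 0.05. Members' rows were read from that fit; the copy rows Atp5a1_1 (0 counts) and Uqcrc1_1 (2 counts) were dropped. SE is the log2 fold change divided by the square root of F. Transcript and coding lengths (stop codon not counted) came from GENCODE M21, 1 transcript per gene, for 96.6% and 96.1% of tested genes, and coordinates from RefSeq GRCm38.p6. Length and GC trends were removed with loess offsets (span 0.5). Alternatives used DESeq2 1.42.0, limma 3.58.1 and the fits listed in the closing section. Within groups, the chi-square statistic of library pairs was 142 to 298 times its degrees of freedom, so no pair was counted as 1 library.

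The members, lists and tests were chosen with earlier results of these data known. Genes named are all of complex II and the cytochromes, core subunits, the accessory subunits Cox4i1 and Cox5a, isoform families and members past the threshold. Named as well are, in complexes III to V, the 3 with the smallest p and the lowest log2 fold change. Of other lists the 2 with the smallest p are named. Other members named were chosen after their values were seen. The edgeR procedure was tested on simulated data.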

Additional observations from a re-analysis of the deposited data

How the results depend on the processing

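Over 20 alternatives the number of called genes, 57 in edgeR's test as reported, stayed within 1.5 times that number with RLE or upper quartile scaling, either other filter and copy rows summed. It was 555 with DESeq2, 128 with limma-voom and 137 with limma-voom and sample quality weights. It was 0 with the replicate block, with any length correction and with ribosomal protein genes left out, where 530 to 864 genes had an unadjusted p under 0.05. Members called numbered 1 as reported, 3 without a filter on low counts, 10 with DESeq2, 4 with either form of limma-voom and 0 in the fits that gave 0 genes. Leaving out 1 library at a time gave 0 to 3 called genes (781 to 1050 at an unadjusted p under 0.05) and 0 called members, and the median of the members ran from 0.47 without ConA+SIM replicate 1 to 0.72 without ConA+SIM replicate 2. The median of the members, 0.53, was 0.51 with the replicate block. It went to 0.011 with transcript length offsets, 0.074 with GC content as well, 0.145 with coding length offsets, which were added after seeing the data, and -0.027 with transcript length offsets and the replicate block together. The labels state no pairing of the samples. Same-numbered libraries had correlations of 0.009 to 0.033 between their deviations from the group means. Libraries with different numbers had -0.038 to 0.018. With 3 libraries per group these values cannot tell whether the samples were paired. The replicate block removed 57 of 57 calls.

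Cox6c kept its call in 8 of 20 alternatives; it was at 1.55 with the replicate block (adjusted p = 0.287, edgeR) and at 1.57 with ribosomal protein genes left out (adjusted p = 0.13). Of the 42 tested members, 21 changed sign under at least 1 alternative, and none of these was called. With transcript length offsets these stood at log2 fold changes of Cox5b at -0.29, Cox4i1 at -0.048, Cox5a at -0.18, Cox7a2l at -0.051, Cox8a at -0.20, Atp5g2 at -0.045, Cox6a1 at -0.34, Cox6b1 at -0.16, Atp5g3 at -0.14, Atp5md at -0.004, Uqcrb at -0.00012, Atp5d at -0.19, Atp5h at -0.47, Atp5c1 at -0.11 and Atp5e at -0.35. With GC content as well they were Cycs at -0.052, Cox5b at -0.42, Cox5a at -0.33, Cox7a2l at -0.12, Cox6a1 at -0.11, Cox6b1 at -0.21, Atp5g3 at -0.21, Atp5md at -0.36, Uqcrb at -0.47, Atp5h at -0.55, Atp5c1 at -0.28 and Atp5e at -0.26. With coding length offsets they were Cycs at -0.16, Cox5b at -0.25, Cox7a2l at -0.19, Cox8a at -0.23, Cox6a1 at -0.17, Cox6b1 at -0.14, Atp5d at -0.069, Atp5h at -0.18 and Atp5e at -0.38. With transcript length offsets and the replicate block they were Cox5b at -0.26, Cox4i1 at -0.092, Cox5a at -0.14, Atp5a1 at -0.19, Cox7a2l at -0.024, Cox8a at -0.23, Atp5g2 at -0.14, Cox6a1 at -0.33, Cox6b1 at -0.24, Atp5g3 at -0.085, Atp5md at -0.03, Uqcrb at -0.034, Atp5d at -0.18, Atp5h at -0.47, Atp5c1 at -0.15 and Atp5e at -0.38. Leaving out single libraries gave Cyc1 at 0.15, Uqcrc1 at 0.46 and Atp5k at 0.11 without ConA replicate 1, Atp5a1 at -0.074 and Atp5h at -0.022 without ConA replicate 2, Atp5b at 0.11 without ConA replicate 3, Atp5k at 0.14 and Atp5a1 at -0.85 without ConA+SIM replicate 2 and Cyc1 at 0.061 without ConA+SIM replicate 3. Over all such fits Uqcrc1 ran from -2.30 to 0.46, Atp5h from -0.022 to 0.35, Atp5k from -0.73 to 0.14 and Atp5a1 from -0.85 to 0.88. Atp5a1 was also at -0.076 with limma-voom, -0.58 with quality weights and -0.18 with the replicate block. The cause was not tested. Leaving out mitochondrially encoded genes was not run. In data simulated for ConA+SIM against ConA with 10509 genes, edgeR found 27% of the 4-fold changes and 52% of the 16-fold ones. The changed genes were drawn at random from all tested genes and not from the members. These shares therefore do not give how often a change in a member would be found. The counts of members apart without single libraries were also added after seeing the data.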
